A study of Mus musculus with 36 samples.

Results

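The genes described here encode the nuclear-encoded subunits of the mitochondrial respiratory chain and of ATP synthase. They were chosen by symbol alone, with no expression value used: every gene of the deposited gene-level tables whose symbol starts with Nduf, Uqcr or Atp5, the genes Sdha, Sdhb, Sdhc and Sdhd, and symbols made of Cox, a digit from 4 to 8 and a letter a, b or c. This gave 90 of 24284 genes. By textbook role they were sorted into 7 core and 29 accessory subunits of complex I with 7 assembly factors that carry Nduf names, 4 subunits of complex II, 8 of complex III, 10 commonly expressed subunits of complex IV (Ndufa4 is placed there), and 15 of complex V (5 of the F1 head, 10 of the Fo part and stalk). The rest were 7 tissue-restricted isoforms (Cox6a2, Cox6b2, Cox7a1, Cox7b2, Cox8b, Cox8c and Ndufa4l2), the supercomplex factor Cox7a2l, and Atp5s and Atp5sl, which carry the name of complex V and are not among its standard subunits. The symbol pattern does not take in Cox4i1, the common form of subunit 4 of complex IV, which is given below with the genes outside the pattern.

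Complexes I and II pass electrons from NADH and succinate to ubiquinone, complex III passes them to cytochrome c and complex IV to oxygen, and complex V uses the proton gradient built by complexes I, III and IV to make ATP. Most subunits are encoded in the nucleus and must be supplied together with those encoded in mitochondrial DNA, and the nuclear genes are expressed in nearly all tissues. A few complex IV subunits have isoforms restricted to heart and skeletal muscle (Cox6a2, Cox7a1, Cox8b) or to testis (Cox6b2, Cox7b2, Cox8c), and Ndufa4l2 is known as a paralogue of Ndufa4 induced by hypoxia. Pluripotent stem cells and fibroblasts are known to differ in how far they rely on glycolysis or on respiration.

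All 12 RNA libraries came from mouse cells that lack MLL3, a histone H3 lysine 4 methyltransferase encoded by Kmt2c, so the controls carry that loss too. The cells called f/f were MLL3-/-;MLL4flox/flox and still carried both conditional alleles of the related enzyme MLL4 (Kmt2d), and the cells called DKO were MLL3-/-;MLL4-/-. Embryonic stem cells (ESC), grown on irradiated feeder fibroblasts with LIF, and day 4 embryoid bodies (suspension culture without LIF) had 2 libraries in each genotype. Immortalised embryonic fibroblasts (MEF) and the same kind of fibroblasts on day 20 after lentiviral Oct4, Sox, Klf4 and c-MYC (D20) had 1 library in each genotype, so for these there is no replicate check and no test. Replicate 1 of ESC and bodies was deposited as read counts and RPKM, and all other libraries as FPKM, both of which are read numbers scaled to gene length and to library size. The file names give both replicate 1 DKO tables the same number, so the DKO cells of that batch may be 1 clone; nothing says whether replicates were separate cultures, and p-values therefore measure only the spread between these libraries.

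The depth by which values were divided ran from 11366191 reads (f/f bodies, replicate 2) to 38264187 reads (DKO MEF). The 4 MEF and D20 libraries had values on 1 common scale, so for them this depth may differ from the reads sequenced. Kmt2d was 13.5 RPKM and 18.7 FPKM in f/f ESC, against 8.89 RPKM and 10.7 FPKM in DKO ESC. It was 14.4 FPKM in the MEF library labelled f/f and 23.5 FPKM in that labelled DKO, and at D20 12.9 FPKM and 24.8 FPKM. Values over the whole gene cannot show a deletion of some exons, so the labels are not checked by them. The 8 stem cell markers examined were all at 1 or more in each ESC and body library, with a summed level of 1134 to 4027. In MEF their sum was 7.31 to 7.52, with 1 of 8 at 1 or more, and at D20 it was 39.2 in the f/f library (4 of 8) and 10.5 in the DKO library (1 of 8). The 10 fibroblast markers summed to 51.6 and 67.8 in ESC of replicate 1 and to 451 and 388 in ESC of replicate 2, against 23.4 to 86.1 in bodies and 2910 to 14265 in MEF and D20 libraries. In bulk RNA, fewer cells of a type and less RNA per cell cannot be told apart. The part of feeder RNA in the differences between bodies and ESC was not tested.

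The members were abundant, and their levels differed by complex. In replicate 2 of f/f ESC the median level per gene length was 195 FPKM for the common complex IV subunits, 161 FPKM for complex V, 90.2 FPKM for complex III, 83.1 FPKM for complex II and 57.8 FPKM for complex I, and 12.9 FPKM for the complex I assembly factors. Within complex V the highest member was Atp5b, the catalytic beta subunit of F1, at 848 FPKM, and the lowest was Atp5g1, 1 of 3 genes for the membrane c subunit, at 81.5 FPKM. Complex IV ran from Cox7c at 338 FPKM to Cox7a2 at 77.0 FPKM, and complex III from the core protein Uqcrc1 at 156 FPKM to the Rieske iron-sulfur protein Uqcrfs1 at 55.6 FPKM. Complex II ran from the iron-sulfur subunit Sdhb at 105 FPKM to the membrane anchor Sdhd at 45.0 FPKM. In complex I the highest member was the accessory subunit Ndufb8 at 112 FPKM; Ndufa11 stood at 18.5 FPKM and Ndufs5 is listed at 0 in all 8 FPKM libraries. Among the assembly factors Ndufaf2 reached 30.9 FPKM and Ndufaf5 3.66 FPKM.

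**Figure D1:**
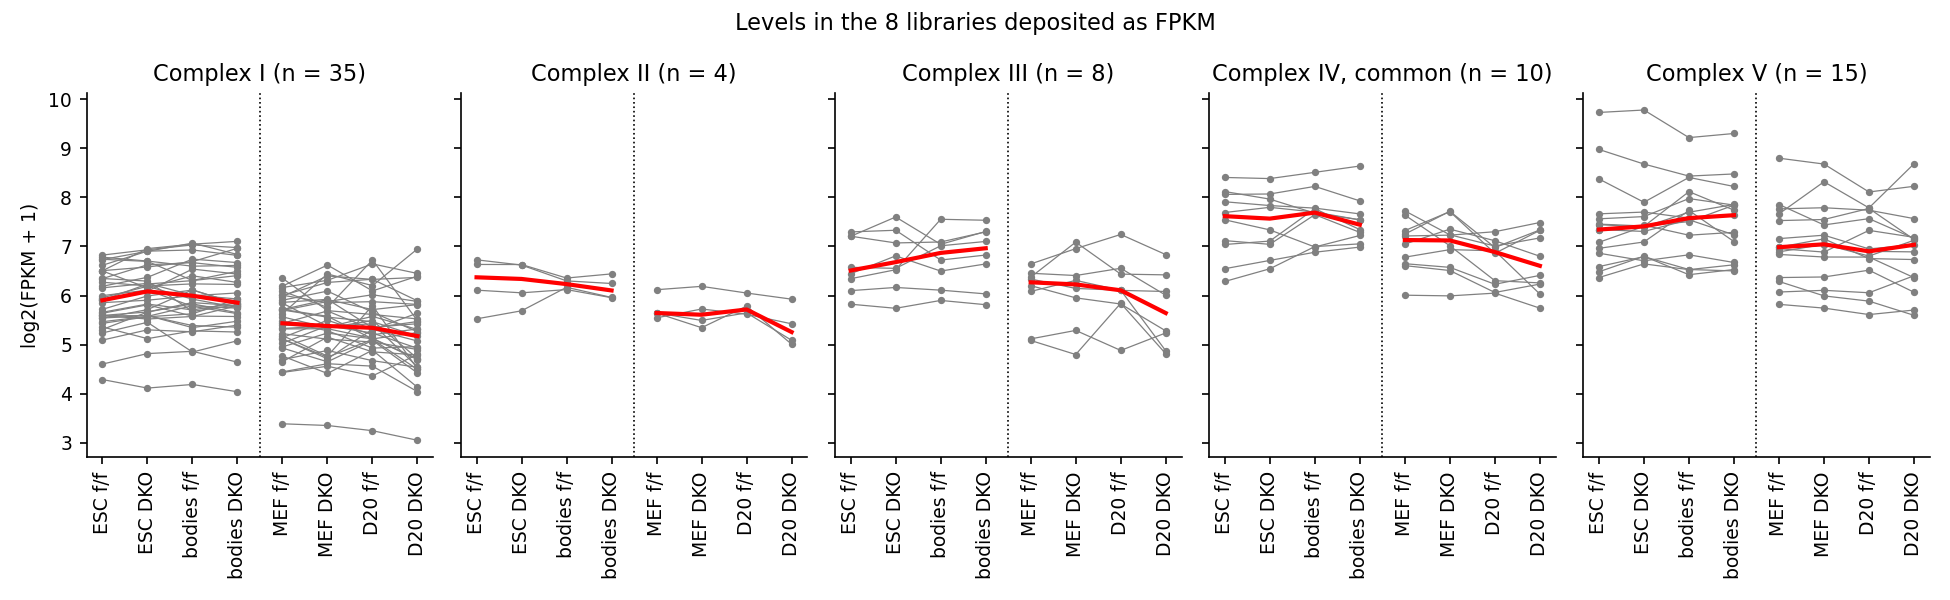
Level of each member, as log2(FPKM + 1), in the 8 libraries deposited as FPKM; each grey line is 1 gene and the red line is the median of the complex, with Ndufs5 (listed at 0) left out. The dotted line separates libraries whose values were scaled separately; complex IV and complex V medians lie above that of complex I in every library, and all medians are lower to the right of the line.

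Summed over the 90 genes, the members made up 1.96% of all FPKM in f/f ESC and 2.27% in DKO ESC of replicate 2, and 2.05% and 2.17% in f/f and DKO bodies. In replicate 1 the same shares of RPKM were 2.36%, 2.52%, 2.159% and 2.53%. In each batch the DKO library had the higher share at both stages. A share depends on the total over all genes as well as on the members. For bodies of replicate 2 the median of the 90 genes was lower in DKO, at 75.4 FPKM against 77.8 FPKM for f/f. In the other pairs of the same stage and batch this median was higher in DKO. The part of the total in the shares was not tested. The 2 batches were counted differently: of 80 members with at least 10 FPKM on average in replicate 2, 5 had a replicate 1 value under 0.1 times it (6.25%, against 4.995% of all such genes), namely Atp5g1, Atp5g2, Atp5l, Ndufab1 and Ndufb4. Atp5g2, for example, had 1.26 RPKM and 331 FPKM in f/f ESC, whereas Ndufs5 had 26.6 RPKM in replicate 1 and is listed at 0 in replicate 2. Levels were therefore not compared between replicate 1 and replicate 2. MEF and D20 levels are set beside replicate 2 of ESC and bodies below, with no test. Differences of Ndufs5 between ESC and body libraries come from replicate 1 alone. Values of these genes are uncertain, since no source used here says how reads shared with near-identical copies were counted.

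The promoters of the members were searched for spellings of 3 factors known from respiratory chain genes, and a few are printed to show them. RefSeq windows of 300 bases (GRCm38.p6; 250 before and 50 after the start site) were found for 76 of the 90 genes, 82 windows in all. GCGCA and GCGC with any 1 base between them, the spelling of nuclear respiratory factor NRF1, was present on either strand in 24.4% of them, against 4.60% of all 32851 windows and 9.99% of the windows of genes tested below. AANATGGCG, a spelling for the factor YY1, was present in 14.6%, against 2.38% of all and 5.07% of tested genes' windows, and in most of them lay within the 50 bases after the start site. CCGGAAG, the core of ETS-family sites such as that of GABP, was present in 20.7%, against 8.86% of all windows and 17.6% of tested genes' windows, so its share was close to that of other expressed genes. At least 1 of the 3 was found in 43 member windows (52.4%, against 14.2% of all and 28.8% of tested genes' windows) and in none of the 4 windows of tissue isoforms, a number too small for a contrast with the other members, of whose 78 windows 55.1% held one. The 3 spellings were picked after 13 had been tried, and those not shown went both ways. GGGCGG, a spelling for Sp1, was in 42.7% of member windows against 64.2% of tested genes' windows. The longer ETS spelling CCGGAAGT was in 6.10% against 8.01%, whereas the shorter NRF1 spelling GCATGCGC was in 14.6% against 5.24%. A match is a description and not a shown binding site, and a window without a match says only that these letters are not in it. The 120 bases before the start site are given 5′ to 3′ on the gene's strand, with NRF1 or ETS spellings in capitals, for 1 common subunit of each complex and for Cox6b1 beside the isoforms Cox6b2 and Cox7a1, whose levels differ widely between stages below.
Ndufs3, chr2:90904722-90904841, minus strand: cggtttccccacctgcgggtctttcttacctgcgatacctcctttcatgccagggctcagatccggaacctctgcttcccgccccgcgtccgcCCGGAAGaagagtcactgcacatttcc
Sdha, chr13:74350241-74350360, minus strand: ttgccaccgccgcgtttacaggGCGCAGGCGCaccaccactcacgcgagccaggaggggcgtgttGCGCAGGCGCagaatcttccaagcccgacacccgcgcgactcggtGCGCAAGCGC
Uqcrh, chr4:116075071-116075190, minus strand: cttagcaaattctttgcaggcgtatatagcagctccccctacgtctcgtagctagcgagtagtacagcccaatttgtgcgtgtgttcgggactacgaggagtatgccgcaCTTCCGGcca
Cox6a1, chr5:115348959-115349078, minus strand: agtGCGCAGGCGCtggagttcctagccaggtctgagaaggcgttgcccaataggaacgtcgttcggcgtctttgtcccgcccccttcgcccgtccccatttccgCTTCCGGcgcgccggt
Atp5k, chr5:108434400-108434519, minus strand: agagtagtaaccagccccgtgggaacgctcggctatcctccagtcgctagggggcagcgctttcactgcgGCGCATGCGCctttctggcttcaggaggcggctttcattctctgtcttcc
Cox6b1, chr7:30626115-30626234, minus strand: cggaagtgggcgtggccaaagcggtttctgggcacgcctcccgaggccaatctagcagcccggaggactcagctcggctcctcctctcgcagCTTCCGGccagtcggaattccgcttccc
Cox6b2, chr7:4753095-4753214, minus strand: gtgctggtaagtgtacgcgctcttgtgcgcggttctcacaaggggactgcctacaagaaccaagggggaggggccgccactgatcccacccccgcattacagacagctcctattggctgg
Cox7a1, chr7:30184051-30184170, plus strand: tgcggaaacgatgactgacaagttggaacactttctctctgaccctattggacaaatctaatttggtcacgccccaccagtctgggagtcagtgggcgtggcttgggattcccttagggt
The last 2 of these, at Cox6b2 and Cox7a1, hold none of the 3 spellings, whereas the stretch at Sdha, the flavoprotein of complex II, holds the NRF1 spelling 3 times.

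Loss of MLL4 in ESC was compared first, DKO against f/f. None of the 86 members that passed the filter (mean value of 1 or more across 8 libraries) changed in limma's test over 12466 genes with Benjamini-Hochberg adjustment, where 4.24% of all genes passed (percent of genes with an adjusted p below 0.05). 3 members had an unadjusted p below 0.05, and edgeR's quasi-likelihood test also called 0 (5.05% of all genes passed it). The members' median log2 difference was 0.04 and that of all genes 0.02, both on the log2(value + 1) scale, which understates differences of low genes. Of the 86 members, 59 were higher and 27 lower in DKO, against 6637 and 5829 of all genes. The sign of the members' median depended on the scaling. After median-of-ratios scaling within each batch it was -0.0023, and the median of all genes moved down too, to -0.013. The median size of a difference was 0.10, against 0.21 over all genes. For 84 of 86 members (97.7%) the 95% interval of the difference lay within 2-fold in both directions, against 79.9% of all genes; since all genes include many at low levels, the part of level in that gap was not tested. The sign was the same in both batches for 47 members (54.7%, against 75.1% of all genes). Stem cell markers summed to 2745 RPKM and 4027 FPKM in f/f ESC and to 1827 RPKM and 2441 FPKM in DKO ESC, and their part in the differences was not tested.

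**Figure D2:**
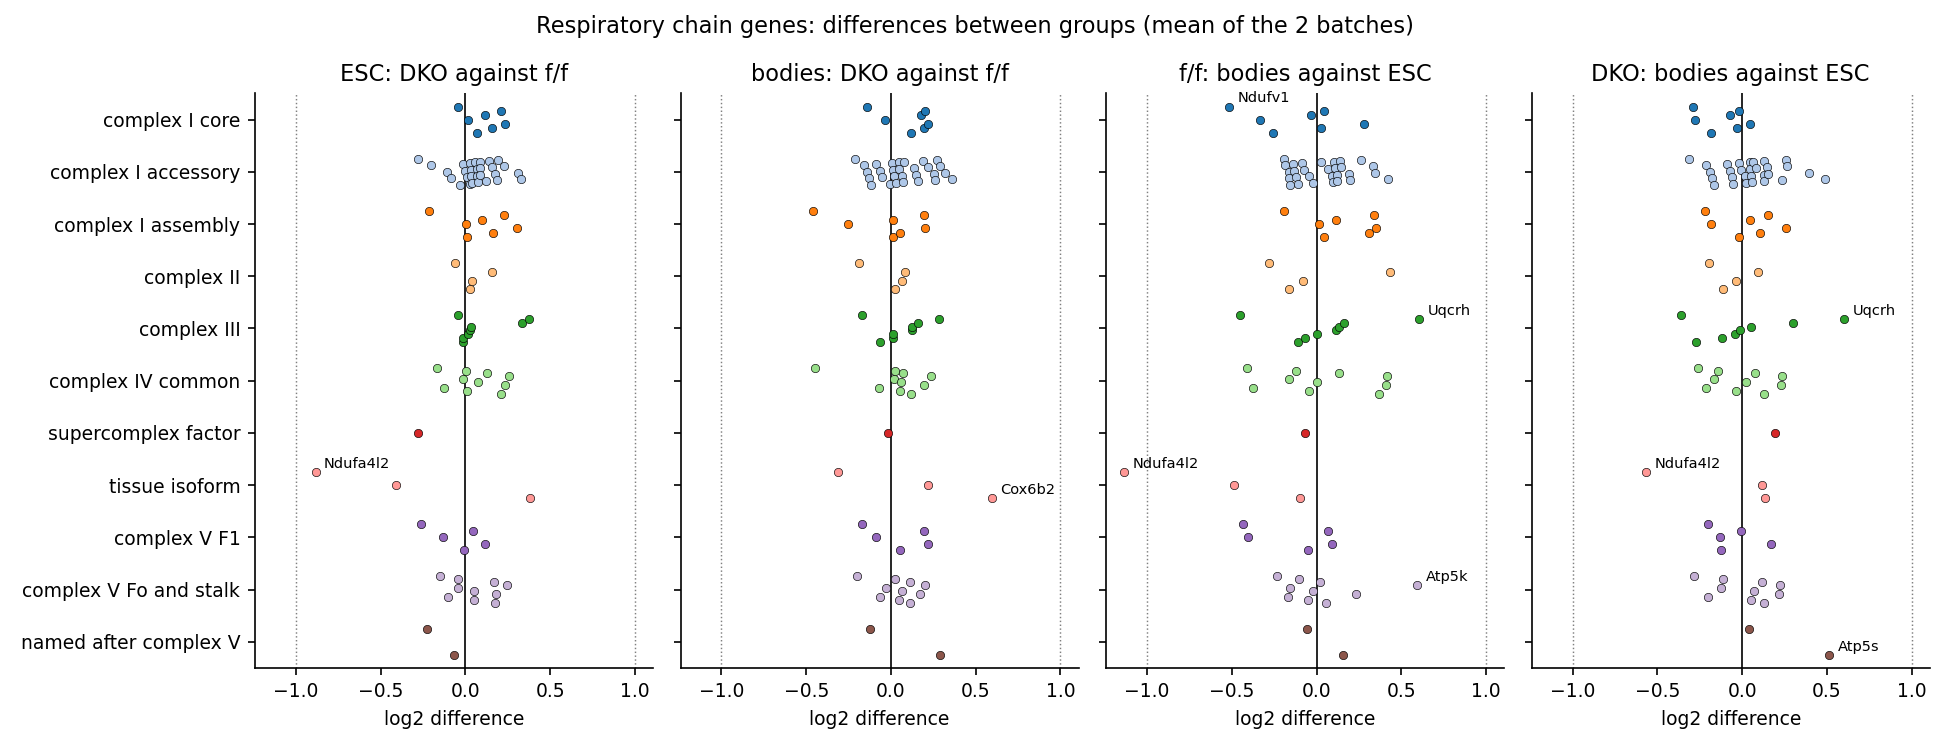
Log2 difference of each tested member in 4 comparisons, grouped by complex; each point is 1 gene and the dotted lines mark 2-fold. All points but Ndufa4l2 in f/f bodies against ESC lie within 2-fold of 0, and those at 0.5 or more in size are named.

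By complex, the median log2 difference in ESC was 0.12 for the complex I core, 0.07 for its accessory subunits, 0.10 for its assembly factors, 0.03 for complex II, 0.02 for complex III, 0.04 for complex IV, -0.01 for F1 and 0.05 for Fo and stalk. Uqcrb, a small subunit of complex III, had 44.9 RPKM and 86.1 FPKM in f/f ESC against 59.2 RPKM and 111 FPKM in DKO ESC, which differ by 0.38 ± 0.12 on the log2 scale (SE, n = 2 libraries per group; limma, adjusted p = 0.14). Uqcrq, also of complex III, had 141 RPKM and 147 FPKM in f/f ESC against 172 RPKM and 193 FPKM in DKO ESC (0.34 ± 0.12; limma, adjusted p = 0.18). Both DKO libraries were higher for both genes, but neither difference passed. Ndufv3, an accessory subunit of complex I, was the common subunit with the largest decrease: 47.1 RPKM and 40.1 FPKM in f/f ESC against 37.5 RPKM and 33.8 FPKM in DKO ESC (-0.28 ± 0.10; limma, adjusted p = 0.19). Ndufa4l2 was lower in DKO ESC in both batches by close to 2-fold, yet with the widest error of the named members (-0.88 ± 0.53; limma, adjusted p = 0.39); its values are given with the other isoforms.

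In bodies the same comparison again called 0 of 86 members with limma, where 4.44% of all genes passed. Unadjusted, 3 members had p below 0.05, and edgeR called 0 (3.86% of all genes passed it). Markers of differentiating bodies, 7 genes such as Mixl1 and Eomes, summed to 459 RPKM and 475 FPKM in f/f bodies and to 65.1 RPKM and 236 FPKM in DKO bodies, and their part in the differences was not tested. The median log2 difference was 0.05 for members and -0.01 for all genes. In DKO, 60 members were higher and 26 lower, against 6096 and 6370 of all genes. This lean was not the same in both batches: the members' median was 0.11 in replicate 1 and -0.03 in replicate 2. For 83 of 86 members (96.5%) the interval lay within 2-fold, against 78.8% of all genes. The complex I core subunits had a median of 0.18, with 5 of 7 higher in DKO, and each of the 7 had the same sign in both batches; over all members this held for 49 of 86 (57.0%, against 70.2% of all genes). Ndufaf6, an assembly factor of complex I, had 12.02 RPKM and 16.8 FPKM in f/f bodies against 8.37 RPKM and 12.04 FPKM in DKO bodies (-0.46 ± 0.14; limma, adjusted p = 0.12). Cox6b1, the common form of complex IV subunit 6b, which faces the intermembrane space, had 179 RPKM and 217 FPKM in f/f bodies against 129 RPKM and 161 FPKM in DKO bodies. Its difference was -0.45 ± 0.19 (limma, adjusted p = 0.25), and it passed with a separate batch term for each stage (adjusted p = 0.0329). Ndufa6, an accessory subunit of complex I, was higher in DKO bodies in both batches, 58.7 against 80.8 RPKM and 102 against 124 FPKM (0.36 ± 0.10; limma, adjusted p = 0.11). Ndufs5 was 22.6 RPKM in f/f and 35.8 RPKM in DKO bodies of replicate 1, and its fitted difference of 0.32 averages that with a 0 from replicate 2.

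Differentiation without LIF was examined next, bodies against ESC of the same genotype. In f/f cells, limma called 0 of 86 members while 12% of all genes passed, 1014 up and 481 down. Here 13 members had an unadjusted p below 0.05, and the call depended on the method: edgeR called 3 members (12.3% of all genes passed it), and limma after median-of-ratios scaling of each batch called 4. That scaling also turned the split of all called genes to 765 up and 809 down and moved the members' median from -0.01 to -0.10, while the median of all genes moved from 0.06 to -0.02. The members that passed under edgeR were all lower in bodies: Ndufv1, the NADH-binding core subunit of complex I, Uqcrc1, and Atp5a1, the alpha subunit of F1. Ndufv1 had 62.5 RPKM and 80.4 FPKM in ESC against 48.4 RPKM and 50.1 FPKM in bodies, a log2 difference of -0.52 ± 0.14 with limma (adjusted p = 0.059) and of -0.61 with edgeR (adjusted p = 0.0373). Uqcrc1 had 102 RPKM and 156 FPKM in ESC against 81.0 RPKM and 105 FPKM in bodies (-0.45 ± 0.12, limma, adjusted p = 0.0571; -0.54, edgeR, adjusted p = 0.0355). Atp5a1 had 408 RPKM and 502 FPKM in ESC against 324 RPKM and 345 FPKM in bodies (-0.44 ± 0.12, limma, adjusted p = 0.0597; -0.52, edgeR, adjusted p = 0.0373). For each of the 3 genes the body library was below the ESC library in both batches. Atp5a1 and Atp5b pair in the F1 head, and Atp5b was also lower, from 793 RPKM and 848 FPKM to 645 RPKM and 594 FPKM (-0.41 ± 0.17; limma, adjusted p = 0.15).

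Other members were higher in f/f bodies, but mainly in replicate 2. Uqcrh, the hinge protein of complex III, was 91.4 RPKM in both ESC and bodies of replicate 1, and 80.1 FPKM in ESC against 187 FPKM in bodies of replicate 2, so its difference was 0.00 in the one batch and 1.21 in the other. Atp5k, the e subunit of the Fo part, differed by 0.16 in replicate 1 and by 1.03 in replicate 2, from 135 to 276 FPKM. Sdhd differed by 0.22 and 0.64 (0.43 ± 0.14; limma, adjusted p = 0.0955). The fitted differences were 0.61 ± 0.31 for Uqcrh and 0.59 ± 0.20 for Atp5k (limma, adjusted p = 0.23 and 0.10). The isoforms Ndufa4l2 and Cox7a1 were lower by 1.13 ± 0.53 and 0.49 ± 0.38 (limma, adjusted p = 0.20 and 0.42). Uqcrh and Atp5k have short transcripts of 546 and 292 bases. Across the 86 members the rank correlation (Spearman) of transcript length with the difference was -0.35 in replicate 2 and 0.07 in replicate 1. Over 12408 genes it was -0.03 and 0.06. In other comparisons it was not confined to replicate 2. For DKO bodies against ESC the members' values were -0.34 in replicate 2 and -0.23 in replicate 1. For DKO against f/f they were 0.03 and -0.32 in bodies and -0.16 and -0.08 in ESC. These are descriptions across genes, which are not independent replicates, and the part of length in the differences was not tested. 51 of 86 members (59.3%) had the same sign in both batches, against 72.7% of all genes.

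**Figure D3:**
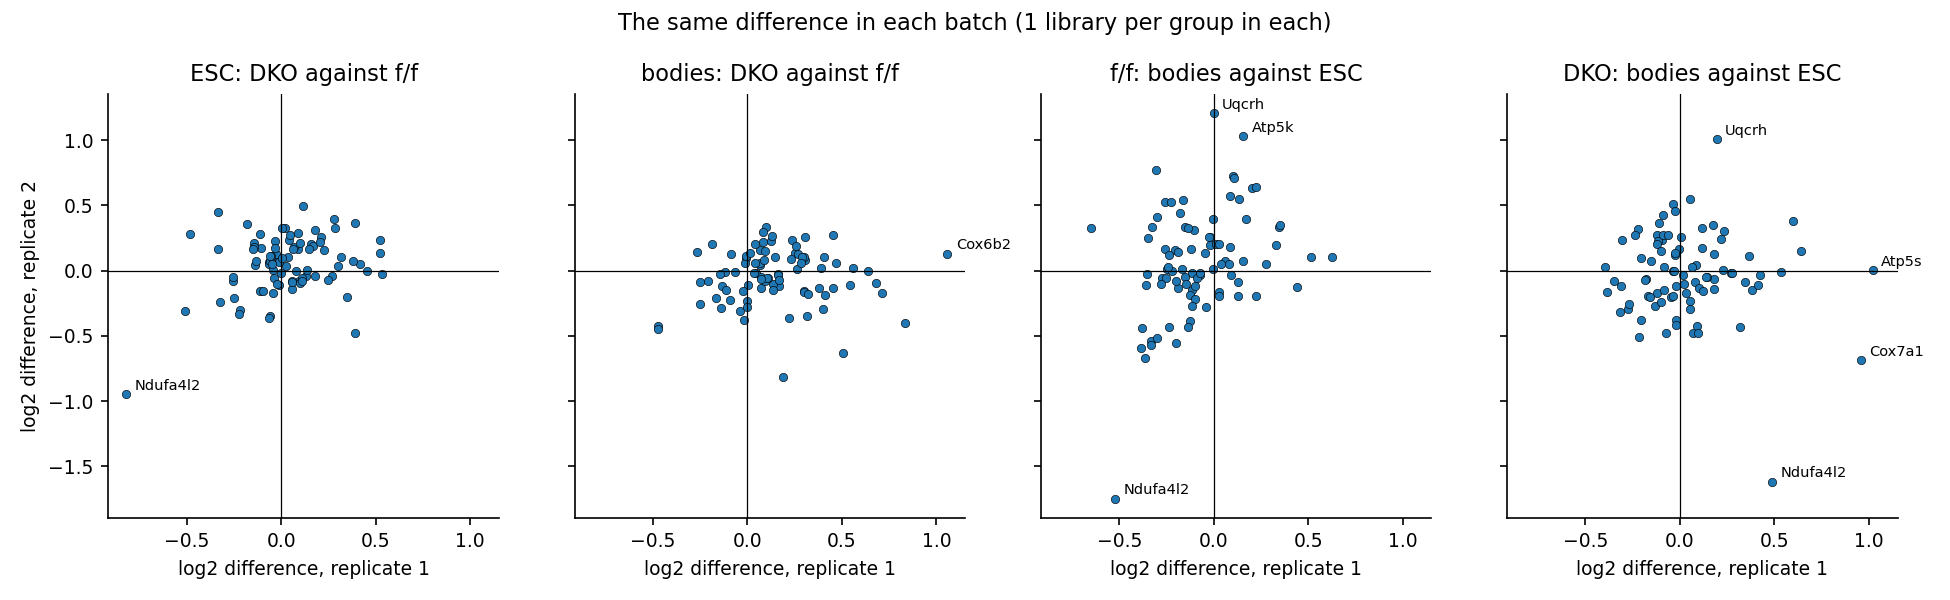
Log2 difference of each tested member in replicate 1 (horizontal axis) and replicate 2 (vertical axis) for 4 comparisons; each point is 1 gene. Uqcrh lies at 0.00 and 1.21 in the comparison of f/f bodies with f/f ESC, and Ndufa4l2 is the point lowest on the vertical axis in every panel.

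In DKO cells, bodies against ESC, limma called 0 of 86 members (0.826% of all genes passed; 5 members had an unadjusted p below 0.05; edgeR called 0, with 1.18% of all genes passing). The median was 0.02 for members and 0.04 for all genes. Ndufa6 had the lowest p of the members: 52.9 RPKM and 94.7 FPKM in ESC, 80.8 RPKM and 124 FPKM in bodies (0.49 ± 0.10; limma, adjusted p = 0.0904). Ndufb6, an accessory subunit in the membrane arm of complex I, was lower in bodies by nearly the same amount in both batches, 0.31 and 0.32 on the log2 scale (-0.32 ± 0.10; limma, adjusted p = 0.16). Uqcrc1 was again lower, 104 RPKM and 160 FPKM in ESC against 89.7 RPKM and 112 FPKM in bodies (-0.36 ± 0.12; limma, adjusted p = 0.18). Uqcrh was 0.60 ± 0.31 higher, and Atp5s 0.51 ± 0.29 higher, the latter from replicate 1 alone (1.02 and 0.00). Ndufa4l2 had opposite signs in the 2 batches, 0.49 and -1.62 (-0.57 ± 0.53). 39 of 86 members (45.3%, against 58.6% of all genes) had the same sign in both batches.

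Whether the difference between the genotypes changed between ESC and bodies was tested as an interaction. Neither limma nor edgeR called a member, and neither called any of the other genes (0% passed); 3 members and 1704 of all genes had an unadjusted p below 0.05 with limma. The members' median was 0.01. Ndufaf4, an assembly factor of complex I, was at -0.56 ± 0.22 (limma, adjusted p = 0.35) and Uqcrb at -0.44 ± 0.17 (limma, adjusted p = 0.35): their differences between DKO and f/f were 0.30 and 0.38 in ESC against -0.25 and -0.06 in bodies. Cox6b1 was at -0.45 ± 0.27 and Ndufa4l2 at 0.57 ± 0.75. Ndufa7, an accessory subunit of complex I, was at 0.36 ± 0.23 and Cox7a1 at 0.63 ± 0.54, the latter 1.34 in replicate 1 and -0.09 in replicate 2. For 77 of 86 members (89.5%) the interval of the interaction lay within 2-fold, against 65.5% of all genes.

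Genes of the same pathway outside the symbol pattern were examined next. Of 43 tested assembly factors and other subunits, limma called 0 between the genotypes at either stage. In f/f bodies against ESC, where 12% of all genes passed, 2 of them fell: Cox4i1, the common form of complex IV subunit 4, by 0.65 ± 0.13 on the log2 scale (limma, adjusted p = 0.0309), and Lrpprc, which stabilises mitochondrial mRNAs, by 0.63 ± 0.13 (limma, adjusted p = 0.0334). In DKO bodies against ESC, where 0.826% of all genes passed, 1 rose, the copper chaperone Cox17 (0.74 ± 0.11; limma, adjusted p = 0.049). Of 17 tested regulators of mitochondrial biogenesis 1 passed in any comparison, Esrrb, which is also a stem cell marker and fell by 3.18 ± 0.55 in f/f bodies (limma, adjusted p = 0.0222). The 13 genes encoded in mitochondrial DNA were not analysed here.

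Other gene groups gave a scale for these values. Of 20 glycolysis genes, 1 rose and 2 fell in DKO ESC: the glucose transporter Slc2a1 rose by 0.93 ± 0.12, and Pfkl and Pgk1, a phosphofructokinase and phosphoglycerate kinase, fell by 0.80 ± 0.11 and 0.73 ± 0.10 (limma, adjusted p = 0.0181, 0.0218 and 0.0212). In f/f bodies against ESC 4 glycolysis genes rose and 2 fell. The median size of a difference in DKO against f/f ESC was 0.44 for glycolysis genes, 0.11 for 77 mitochondrial ribosomal protein genes and 0.27 for 83 cytosolic ribosomal protein genes, beside 0.10 for the respiratory chain members. The median signed difference of the cytosolic ribosomal genes in DKO ESC was -0.27, and that of the mitochondrial ribosomal genes -0.01. These groups were not tested against one another.

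MEF and D20 libraries held less of the members than ESC and bodies did. The 4 MEF and D20 tables had the same median-of-ratios scale (spread 5.6e-10), whereas the 4 tables of replicate 2 ESC and bodies differed from each other by 2.4e-02, so the sets were scaled separately and levels across them are given with no test. The median member stood at 74.1 and 74.6 FPKM in f/f and DKO ESC, 77.8 and 75.4 FPKM in bodies, 51.4 and 51.3 FPKM in MEF and 49.3 and 40.4 FPKM at D20. Members made up 1.67% and 1.65% of all FPKM in f/f and DKO MEF and 1.46% and 1.33% at D20. In 59 of 85 members with a mean of at least 1 FPKM both MEF libraries lay below all 4 ESC and body libraries (69.4%, against 37.2% of 12970 genes), and only in Ndufb11, an accessory subunit of complex I, did both lie above (27.8% of all genes did). At D20 the count below was also 59 (34.1% of all genes), and Ndufb11 and Cox7a2l lay above (26.3%). The median log2 ratio of MEF to ESC and bodies was -0.57 for members and -0.12 for all genes, and that of D20 -0.68 and -0.09.

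All 5 F1 subunits were below ESC and bodies in MEF, as were 20 of 28 accessory and 4 of 7 core subunits of complex I, 3 of 4 of complex II, 5 of 8 of complex III, 5 of 10 of complex IV and 7 of 10 of Fo and stalk. The levels of Atp5b were 848 and 877 FPKM in f/f and DKO ESC, 594 and 629 FPKM in bodies, 444 and 409 FPKM in MEF, and 275 and 298 FPKM at D20, with no overlap between stages in these 8 libraries. In replicate 1 the stages overlapped: 793 and 758 RPKM in f/f and DKO ESC against 645 and 796 RPKM in bodies. Ndufa7 stood at 70.3 to 89.5 FPKM in ESC and bodies and at 24.9 and 28.5 FPKM in MEF. Ndufs6, an accessory subunit of complex I, stood at 105 to 133 FPKM in ESC and bodies and at 31.6 and 40.7 FPKM in MEF. Atp5l, the g subunit of Fo, was the member with the highest MEF level relative to ESC and bodies, 230 and 172 FPKM against 124 to 212 FPKM, and its libraries overlapped.

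Loss of MLL4 in MEF was compared in 1 library per genotype. 1 of 86 members differed by 2-fold or more on the log2(FPKM + 1) scale, where 8.89% of all genes did: Cox6b2, at 0.56 FPKM in f/f and 2.88 FPKM in DKO. No member was lower by 2-fold, where 5.17% of all genes were. The members' median was 0.03 and that of all genes 0.04, with 48 members higher and 38 lower. Next came Ndufa6 (48.5 and 85.7 FPKM), Uqcrq (81.9 and 135 FPKM), Atp5g2 (202 and 318 FPKM) and Ndufaf6 (2.43 and 4.09 FPKM), all higher in DKO. Lower in DKO were Ndufb8 (80.6 and 50.7 FPKM), Ndufa4 (198 and 128 FPKM), Cox8a (211 and 150 FPKM), Ndufb7 (56.4 and 40.5 FPKM) and Ndufc2 (35.3 and 26.2 FPKM).

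At D20 the DKO library held less than the f/f library for most members. 55 of 86 (64.0%) were lower, against 47.6% of all genes, and the median log2 difference was -0.14 against 0.04 over all genes. Of 77 mitochondrial ribosomal protein genes 47 (61.0%) were lower, with a median of -0.08. Of 81 cytosolic ribosomal protein genes 33 (40.7%) were lower. 7 members differed by 2-fold or more, where 18.7% of all genes did. All 7 were lower in DKO, where 10.4% of all genes were: Ndufa4l2 (26.7 and 0.18 FPKM), Cox6b2 (14.9 and 3.32 FPKM), Ndufc2 (54.5 and 21.7 FPKM), Ndufa3 (105 and 43.8 FPKM), Uqcr11 (67.9 and 28.3 FPKM), Atp5sl (5.35 and 2.07 FPKM) and Uqcrc2 (56.3 and 27.1 FPKM), the first value being f/f. By complex, 22 of 28 accessory subunits of complex I, all 4 subunits of complex II and 7 of 8 of complex III were lower. So were 7 of 10 of Fo and stalk and 4 of 7 complex I assembly factors. The counts were 2 of 7 for core subunits of complex I, 4 of 10 for complex IV and 2 of 5 for F1. Atp5g2 went the other way, 220 FPKM in f/f and 410 FPKM in DKO, as did Ndufa6, 72.6 and 123 FPKM, and by less Cox6a2, Atp5s (2.99 and 4.80 FPKM) and Cox6c (115 and 160 FPKM). In these libraries the stem cell markers summed to 39.2 FPKM in f/f and 10.5 FPKM in DKO and the fibroblast markers to 14265 and 9955 FPKM. Levels of Pou5f1, which encodes Oct4, were 19.8 FPKM for f/f and 0.12 FPKM for DKO. Those of Sox2 were 9.36 and 0.24 FPKM. Only Nanog among the stem cell markers was higher in DKO (5.49 and 9.68 FPKM), and it made up most of the DKO sum. The part of both marker sets in the difference was not tested.

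**Figure D4:**
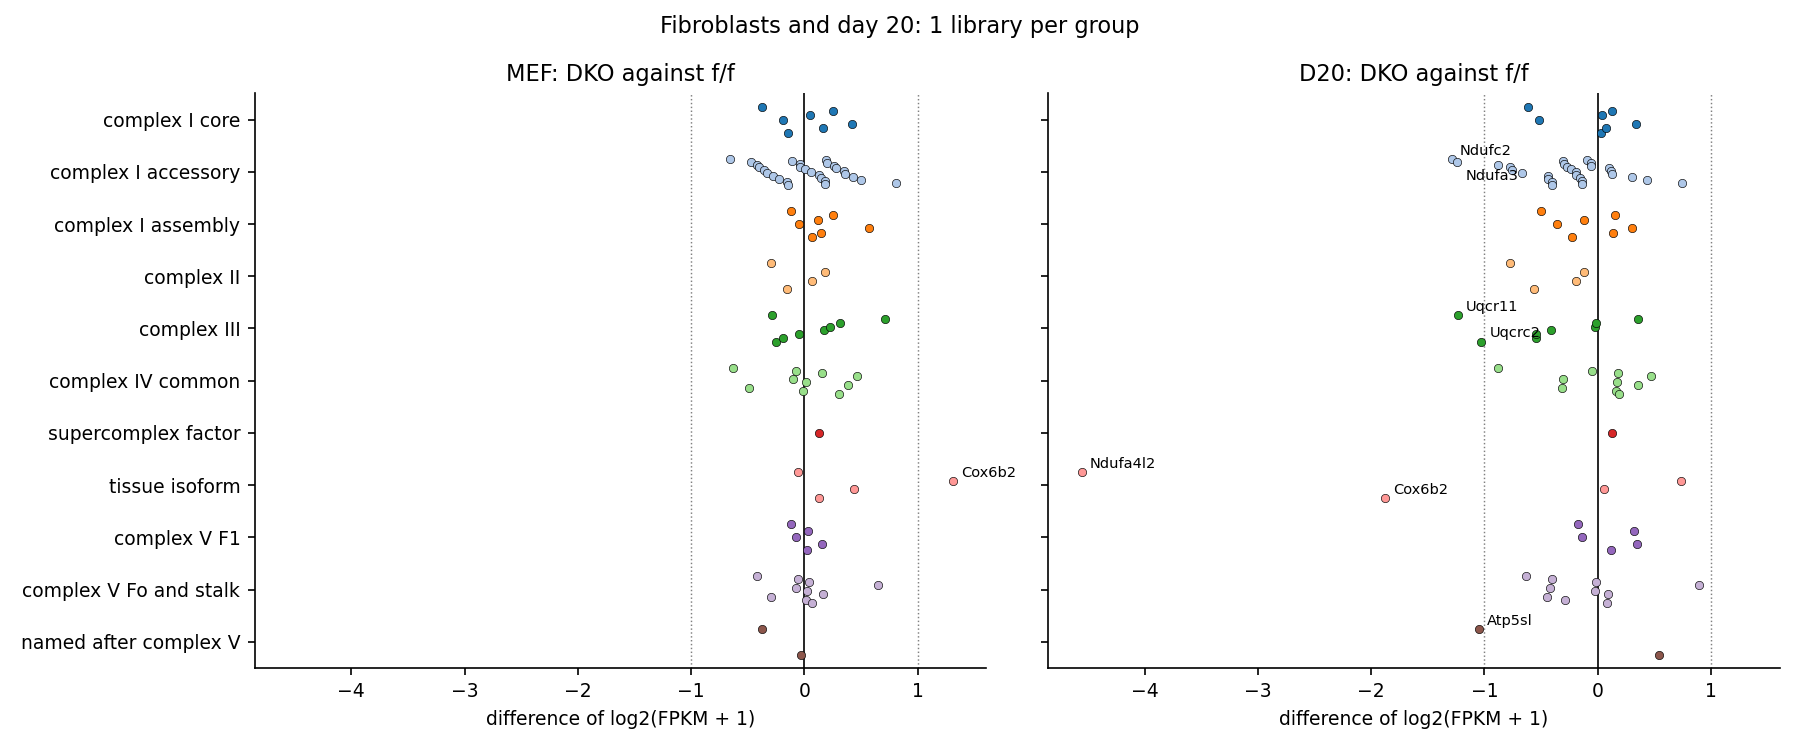
Difference of log2(FPKM + 1) between the DKO and the f/f library in MEF and at D20 for each member with a mean of at least 1 FPKM, grouped by complex; dotted lines mark 2-fold and members past them are named. In MEF only Cox6b2 passes 2-fold, and at D20 7 members do, all lower in DKO.

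Factor treatment was compared as D20 against MEF, by the labels of the libraries. From MEF to D20, Pou5f1 went from 0.12 to 19.8 FPKM and Sox2 from 0.13 to 9.36 FPKM in f/f cells. For DKO cells these changes were from 0.09 to 0.12 FPKM and from 0.05 to 0.24 FPKM. How far the DKO cells at D20 expressed the added factors was not tested. In f/f cells the members' median was 0.02, and 3 of 86 differed by 2-fold or more (12% of all genes): Ndufa4l2 (0.18 to 26.7 FPKM) and Cox6b2 (0.56 to 14.9 FPKM) were higher and Ndufa4 (198 to 77.9 FPKM) was lower (5.66% of all genes were). Under 2-fold, Uqcrc2 (32.9 to 56.3 FPKM), Cox6a2 and Atp5sl (2.98 to 5.35 FPKM) were next highest, and Ndufb8 (80.6 to 48.0 FPKM), Cox8a (211 to 128 FPKM), Atp5b and Ndufv1 (51.6 to 33.7 FPKM) next lowest. In DKO cells 67 of 86 members (77.9%) were lower at D20, where 51.9% of all genes were. The median was -0.24 against -0.02 over all genes. Of 77 mitochondrial ribosomal protein genes 60 (77.9%) were lower as well, with a median of -0.22, so this lean was not particular to the members. Of 81 cytosolic ribosomal protein genes 7 (8.64%) were lower. 2 members differed by 2-fold or more, where 7.71% of all genes did. Cox6a2 was higher (0.44 to 2.59 FPKM). Uqcr11, a small subunit of complex III, was lower (69.7 to 28.3 FPKM), where 3.63% of all genes were. Cox5b, the zinc-binding subunit of complex IV, followed with 121 to 64.3 FPKM, Ndufb6 with 67.1 to 37.4 FPKM and Ndufb7 with 40.5 to 22.4 FPKM. The supercomplex factor Cox7a2l was higher at D20, 97.3 and 149 FPKM. These comparisons share libraries with those of DKO against f/f, so they are no separate evidence.

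The isoforms were the members that varied most. Cox6b2, known from testis, had 44.3, 64.2, 39.9 and 84.1 RPKM in f/f ESC, DKO ESC, f/f bodies and DKO bodies of replicate 1 and 59.2, 69.9, 57.3 and 62.8 FPKM in replicate 2. It was higher in DKO in each of these 4 pairs, by 0.38 ± 0.22 in ESC (limma, adjusted p = 0.38) and 0.59 ± 0.22 in bodies (limma, adjusted p = 0.20). Its share of the sum of Cox6b1 and Cox6b2 was 18.2% to 39.5% in the 8 ESC and body libraries, 0.43% and 1.74% in f/f and DKO MEF, and 9.77% and 2.92% at D20. The order was thus ESC and bodies, then D20, then MEF; in MEF the DKO library was above f/f and at D20 below it, and the DKO libraries of MEF and D20 (2.88 and 3.32 FPKM) were close.

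Cox7a1, known from heart and skeletal muscle, had 8.90, 5.95, 6.59 and 12.5 RPKM in replicate 1 and 13.9, 11.04, 8.89 and 6.49 FPKM in replicate 2, in the same order of groups. Its difference between DKO and f/f ESC was -0.41 ± 0.38 (limma, adjusted p = 0.58). The batches disagreed on the direction in bodies, where DKO was above f/f in replicate 1 and below it in replicate 2. In MEF it stood at 0.47 and 1.00 FPKM and at D20 at 1.31 and 1.40 FPKM, on 5 to 14 reads. Its share of the sum with Cox7a2, the common form, was 4.70% to 15.3% in ESC and bodies and 0.47% to 1.74% in the other 4 libraries. 6 muscle and heart markers summed to 7.86 or less in every library, and the highest of them, Myl7 in f/f bodies of replicate 2, was at 4.32 FPKM.

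Ndufa4l2 had the widest range, from 0.14 FPKM in DKO MEF to 26.7 FPKM in the f/f library at D20. Recovered from the FPKM steps, these values rest on 643 reads at D20 in f/f (exact Poisson 95% interval 594 to 695), 4 reads in DKO (1.09 to 10.2), and 5 reads in each MEF library (1.62 to 11.7), intervals that cover counting error only. In replicate 2 it was 14.02 and 6.81 FPKM in f/f and DKO ESC, and 3.48 and 1.54 FPKM in bodies, so each group was about 2-fold below the one before. In replicate 1 the values were 6.998, 3.53, 4.57 and 5.34 RPKM in the same order, so the lower level in DKO ESC was seen in both batches and that in DKO bodies in replicate 2 only (-0.31 ± 0.53 over both). Its common counterpart Ndufa4 was between 131 and 199 FPKM in ESC and bodies of replicate 2 and in f/f MEF, 128 FPKM in DKO MEF and 77.9 and 75.4 FPKM at D20.

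**Figure D5:**
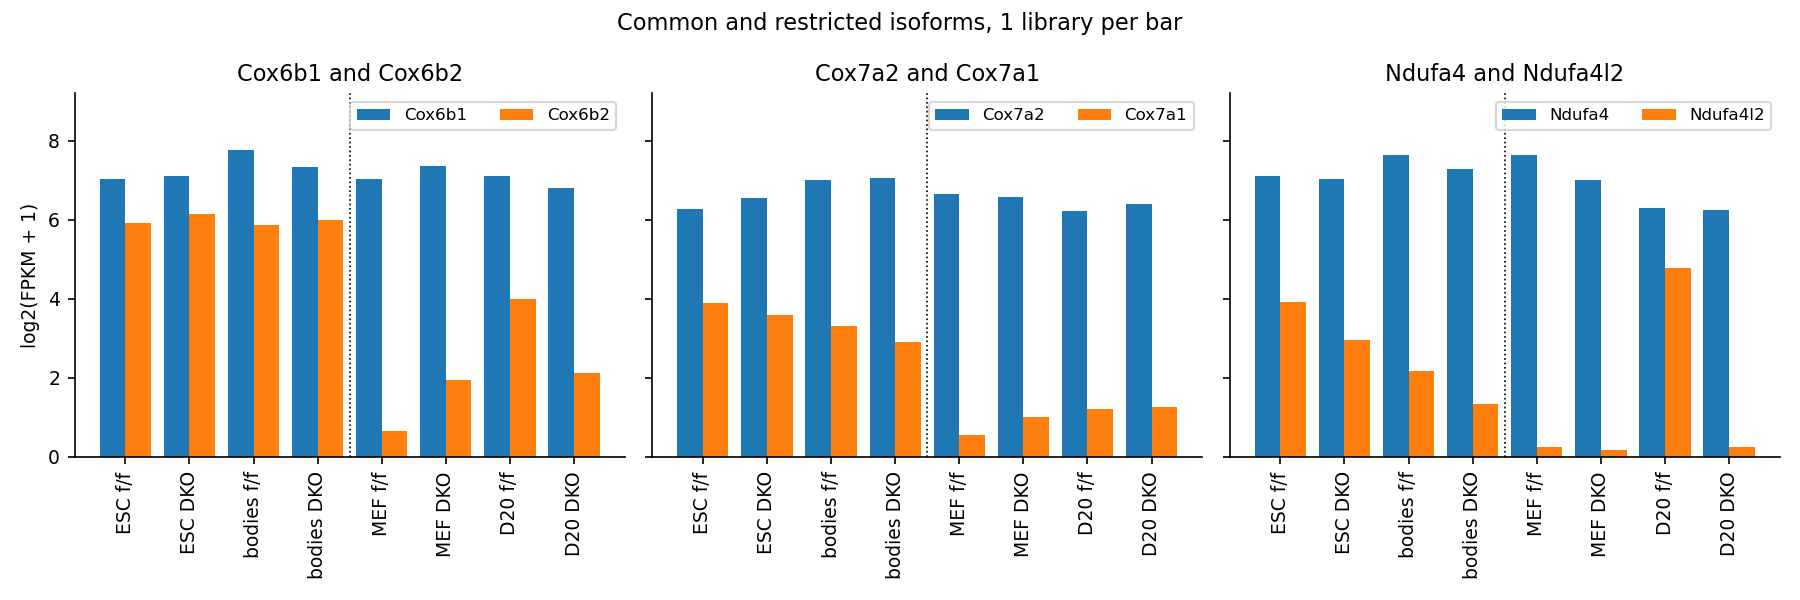
Level of the common (blue) and restricted (orange) isoform of 3 subunits, as log2(FPKM + 1), in the 8 libraries deposited as FPKM; each bar is 1 library and the dotted line separates libraries scaled separately. The common forms stand above 6 in every library, while Cox6b2 and Cox7a1 are lowest in f/f MEF and Ndufa4l2 is highest in f/f D20.

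The other 4 isoforms did not pass the filter in ESC and bodies. Cox8b was at 0.26 or less in all 12 libraries, and Cox7b2 was at 1.83 RPKM in DKO bodies of replicate 1 (23 reads) and at 0.59 or less elsewhere. Cox8c stood at 1.38 and 4.08 RPKM in DKO ESC and DKO bodies of replicate 1 (13 and 45 reads) and at 0.46 or 0.11 in the f/f libraries of that batch, but at 0.49 FPKM or less in replicate 2. Cox6a2, the muscle form of subunit 6a, was low but higher in DKO in each of the 6 pairs of libraries of the same stage and batch. It stood at 0 and 0.69 RPKM in ESC and 0.16 and 0.79 RPKM in bodies of replicate 1, at 0 and 0.28 FPKM in ESC and 0.13 and 1.01 FPKM in bodies of replicate 2, and at 0.31 and 0.44 FPKM in MEF and 1.15 and 2.59 FPKM at D20, f/f first. These rest on 0 to 40 reads (19 and 40 at D20), and with no filter on level limma called 0 of the 90 members in every comparison.

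Counted over the same 6 pairs, 1 of the 86 tested members was higher in DKO each time, Ndufs3, a core subunit of complex I (7.16% of all genes were), and 3 were lower each time, Ndufv3, Ndufa11 and Atp5sl (6.06% of all genes). Ndufs3 passed no test. It had, f/f first, 14.1 and 14.8 RPKM in ESC and 14.5 and 15.5 RPKM in bodies of replicate 1, 49.5 and 55.7 FPKM and 51.2 and 56.8 FPKM in replicate 2, 39.2 and 40.6 FPKM in MEF and 39.8 and 42.0 FPKM at D20. The differences were thus small and of 1 sign. The members' counts lie at or below the shares of all genes.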

How the data were processed

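RNA was measured in 12 libraries of 36 samples; 24 other samples, of chromatin and its input, are not analysed here. Replicate 1 of ESC and bodies was deposited as read counts and RPKM per RefSeq transcript, per the file headers, and all others, per their file headers, as deposited FPKM by Entrez gene. Software listed in the submitters' processing notes is bedtools 2.16, SICER 1.1 and CASAVA 1.8.2, with the build mm9. Aligner, annotation and strand setting were not given in the sources used here. Overlapping, antisense and near-identical genes are therefore uncertain.

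Transcripts (28436 of 29082 matched) were joined to genes through a GRCm38.p6 table, giving 22456 genes in both kinds of file; of several transcripts (7 members) the one with the highest reads was used. Steps between low FPKM values gave the depth by which values were divided (90.9% to 92.5% of values whole within 0.02 reads). Same-batch libraries deviated together (correlations 0.864 to 0.954 over genes). The batches were deposited in different units and counted differently, so such correlations could arise from the files alone. They cannot show that libraries with the same replicate number were made together. Batch was a block in limma 3.58.1 (R 4.3.3, empirical Bayes with trend, two-sided) on log2(value + 1). The fit had 8 libraries, 4 groups, 12466 genes with a mean of at least 1 and 3 residual degrees of freedom. Benjamini-Hochberg adjustment and a threshold of 0.05 were used. MEF and D20 libraries were compared as log2(FPKM + 1) over 12281 genes with a mean of at least 1 FPKM over the 4, counting differences of 1 or more. Alternatives were pseudocounts of 0.1 and 5, other filters, scalings and batch terms, mean RPKM over transcripts, edgeR 4.0.16 on counts and recovered reads (12408 genes), and leaving out each library. The limma steps were tested on simulated data with known fold changes and a spread that was set, not taken from these libraries. The text names members called, or else the 3 largest differences each way per comparison (5 each way in MEF and D20), the highest and lowest of each complex and all tissue isoforms; Atp5b, Ndufs6, Atp5l, Ndufs3 and the members called only by an alternative were chosen after their values were seen. The members, lists and tests were chosen with earlier results of these data known.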

Additional observations from a re-analysis of the deposited data

Results flagged for a closer look

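The difference between DKO and f/f in Cox6b2 had opposite signs in MEF and at D20. On the log2(FPKM + 1) scale DKO was 1.31 above f/f in MEF and 1.88 below it at D20, so that the D20 difference less the MEF difference was -3.19. Each genotype had 1 library at each stage, and the difference was not tested.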

How the results depend on the processing

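Counts of members called in ESC and bodies were 0 in every comparison under pseudocounts 0.1 and 5, both other filters, quantile scaling and mean RPKM over transcripts. For f/f bodies against ESC the count was 4 with median-of-ratios scaling and 3 with edgeR, and 0 to 3 when 1 library was left out: 2 without DKO bodies replicate 1 (Cox6a1, Ndufv1) and 3 without DKO bodies replicate 2 (these and Uqcrc1), where 1237 up and 614 down, and 1248 up and 634 down, of all 12466 genes were called. For DKO against f/f bodies it was 1 with a replicate block within each stage (Cox6b1) and 0 to 1 when a library was left out, the 1 being Cox6b2 (0.98, adjusted p = 0.0356) without DKO bodies replicate 2. With no replicate block it was 0 in all 5 comparisons, and all-gene calls dropped from 529, 553, 1495, 103 and 0 to 0, 2, 0, 1 and 0 (ESC, bodies, f/f stage, DKO stage, interaction). With the block within each stage, all-gene calls up and down were 615 and 813 in ESC, 526 and 998 in bodies, 107 and 173 in the DKO stage comparison and 127 and 226 for the interaction. With no filter they were 55 and 152, 34 and 255, 747 and 285, 0 and 1, and 0 and 0, and with quantile scaling 664 and 558 in the f/f stage comparison.

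Leaving out 1 library of a comparison left 0 to 9 all-gene calls in ESC, 0 to 3 in f/f bodies against ESC, from 0 (without f/f replicate 2) to 237 up and 552 down (without DKO replicate 2) in bodies, and from 0 to 36 up and 75 down in DKO bodies against ESC. It reversed 5 named differences. Ndufa4l2 ranged from -1.20 to 0.58 for DKO against f/f bodies and from -1.455 to 0.32 for DKO bodies against ESC, the highest values being those without DKO bodies replicate 2. Its interaction ranged from -0.320 (without DKO bodies replicate 1) to 1.46 and was -0.026 without f/f ESC replicate 2, and the interaction of Cox7a1 ranged from -0.094 (without DKO bodies replicate 1) to 1.35. The cause was not tested.

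Members 2-fold apart numbered 0 in MEF with pseudocount 5, 5 for f/f D20 against MEF with pseudocount 0.1, and 1 for DKO D20 against MEF with pseudocount 5 and with a filter of 5. Median-of-ratios scaling could not change the comparisons of MEF and D20 libraries, which already shared 1 such scale (spread 5.6e-10), so it was no check of them. The smallest difference that 2 libraries per group can call was not measured at the spread of these libraries, and low isoforms are limited by reads.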
